A study of Mus musculus with 6 samples.

Results

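The subject is a set of 9 miRNAs that are best known from epithelial cells: miR-375, miR-141-3p, miR-200a-3p, miR-200b-3p, miR-182-5p, miR-183-5p, miR-205-5p, miR-192-5p and miR-194-5p. They are 9 of the 1983 rows of a small RNA sequencing table, where they carry human names (hsa-mir-375, hsa-mir-141-3p, hsa-mir-200a-3p and so on), and the table was made from epididymal white adipose tissue (WAT) of male C57BL6/J mice. One group was wild type (Wt, n = 3) and the other, Agt Tg (n = 3), overexpressed angiotensinogen (Agt), the precursor of angiotensin II, in adipose tissue from a transgene under the aP2 promoter. There was 1 library per labelled sample. The labels give a chow diet for every mouse, the methods of the study a low fat diet, and no age is given in the sources used here. The 9 rows were listed by name and chosen by their levels in these same libraries, above all by their high levels in Wt replicate 2. The aP2 promoter belongs to the adipocyte fatty acid binding protein gene and is also known to be active in macrophages, so the transgene need not be limited to adipocytes.

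MicroRNAs are short RNAs that lower the output of mRNAs whose 3′ UTR pairs with the miRNA seed. The miR-200 family holds cells in an epithelial state by repressing Zeb1 and Zeb2, the repressors of E-cadherin, and miR-205 of stratified and glandular epithelium acts on the same pair. The miR-183 cluster is known from sensory organs and from many epithelia, miR-375 from pancreatic islets and secretory epithelium, and miR-192 with miR-194 from intestine, kidney and liver. Adipocytes are not epithelial cells, and adipose tissue is not the tissue these miRNAs are best known from.

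The mature mouse sequences are shown because family members share seeds and differ at few other bases, which bears on how far their reads can be told apart. They were taken from RefSeq (GRCm38.p6), which gave 8 of the 9 members and 4 partners from the same gene clusters, and miR-375 is only named. Each runs 5′ to 3′, and the capitals mark the seed, bases 2 to 8.
miR-141-3p: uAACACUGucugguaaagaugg
miR-200a-3p: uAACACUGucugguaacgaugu
miR-200b-3p: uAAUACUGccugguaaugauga
miR-200c-3p (partner): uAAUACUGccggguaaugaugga
miR-429-3p (partner): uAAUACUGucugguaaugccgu
miR-182-5p: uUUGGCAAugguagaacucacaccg
miR-183-5p: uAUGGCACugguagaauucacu
miR-96-5p (partner): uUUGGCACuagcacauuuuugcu
miR-192-5p: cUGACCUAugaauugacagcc
miR-215-5p (partner): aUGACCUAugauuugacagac
miR-194-5p: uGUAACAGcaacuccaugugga
miR-205-5p: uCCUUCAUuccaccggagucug

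miR-141-3p and miR-200a-3p have one seed and differ by 2 substitutions over 22 bases, C17A and U22G, counted from 1 at the 5′ end with the base of miR-200a-3p first. miR-200b-3p and miR-200c-3p share the other seed of the family and differ over their first 22 bases by U11G and A22G, with the base of miR-200b-3p first. The seeds of miR-200a-3p and miR-200b-3p are set apart by the single substitution C4U. miR-192-5p and miR-215-5p also share a seed and differ by 3 substitutions, C1A, A12U and C20A, with the base of miR-192-5p first. miR-182-5p and miR-183-5p have different seeds but differ at only 4 of the 22 bases compared. How many mismatches the authors allowed is not given in the sources used here, so some reads of these pairs may have been counted in either row.

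The genes of the set other than Mir375 lie at 6 places, all given on GRCm38.p6. Mir200b, Mir200a and Mir429 lie within 1846 bases on chromosome 4, minus strand, with Mir200b at chr4:156055681-156055750, and in the GENCODE annotation of that build all 3 hairpins fall in introns of Ttll10 on the same strand. The Mir429 hairpin also overlaps an exon of Gm13648 on that strand. Mir200c and Mir141 lie within 477 bases on chromosome 6, with Mir141 at chr6:124717914-124717985 and both in an intron of the antisense gene Gm15884. The Mir141 hairpin also overlaps an exon of Gm29008 on the same strand. Mir183, Mir96 and Mir182 span 3820 bases elsewhere on the same chromosome, with Mir182 at chr6:30165918-30165992, outside any other annotated gene. Mir192 and Mir194-2 lie within 290 bases at chr19:6264643-6264932, again outside other genes. Mir194-1 and Mir215 form a second pair on chromosome 1 and give the same mature miR-194-5p, so the row of miR-194-5p cannot be assigned to either gene. Mir205 lies alone at chr1:193507463-193507530, where the annotation has an exon of 4631405K08Rik, a lincRNA gene, and Mir375 is not placed here.

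Levels are the deposited log2 values, in reads per 10000000 of the library total, and 1 log2 unit is a factor of 2. Values under 10 reads per 10000000 had been raised to 10 by the authors, which is the floor of 3.32 on the log2 scale and stood for 6.39 to 10.6 reads. Library totals lay between 6387766 and 10562634 reads, and that of Wt replicate 2, at 7838874, lay inside the range of the others. A level is a share of reads from whole tissue, so more cells of one kind and more of a miRNA per cell cannot be told apart. Of the table's rows, 329 were above the floor in at least 3 libraries and were tested. All 9 miRNAs were among them, and 6 of the 9 were above the floor in every library. miR-200a-3p and miR-183-5p were at the floor in 2 of the libraries other than Wt replicate 2 and miR-141-3p in 3, so that miR-141-3p passed this filter only through that library. Of 6 miRNAs known from adipocytes, 5, including miR-143-3p, were above the floor and miR-193b-3p was at the floor in every library. No other tissue was compared, so this does not check the labelled tissue.

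One library stood apart, and it did so in every one of the 9 miRNAs. In Wt replicate 2 they took 2.11% of the reads on listed miRNAs (95% Wilson interval 2.1% to 2.12%, counting error only), compared with 0.0969% to 0.107% in the other 5 libraries. All 9 were higher there than in any other library, which was so for 29.5% of the 329 tested rows. Of the 9, 8 exceeded every other library by more than 2 on the log2 scale. This was so for 3.65% of the tested rows, 12 rows that include those 8. No row exceeded all other libraries by that much in any of the 5 other libraries. These values led to the choice of the 9 miRNAs, so they are given as a description and not tested.

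**Figure D1:**
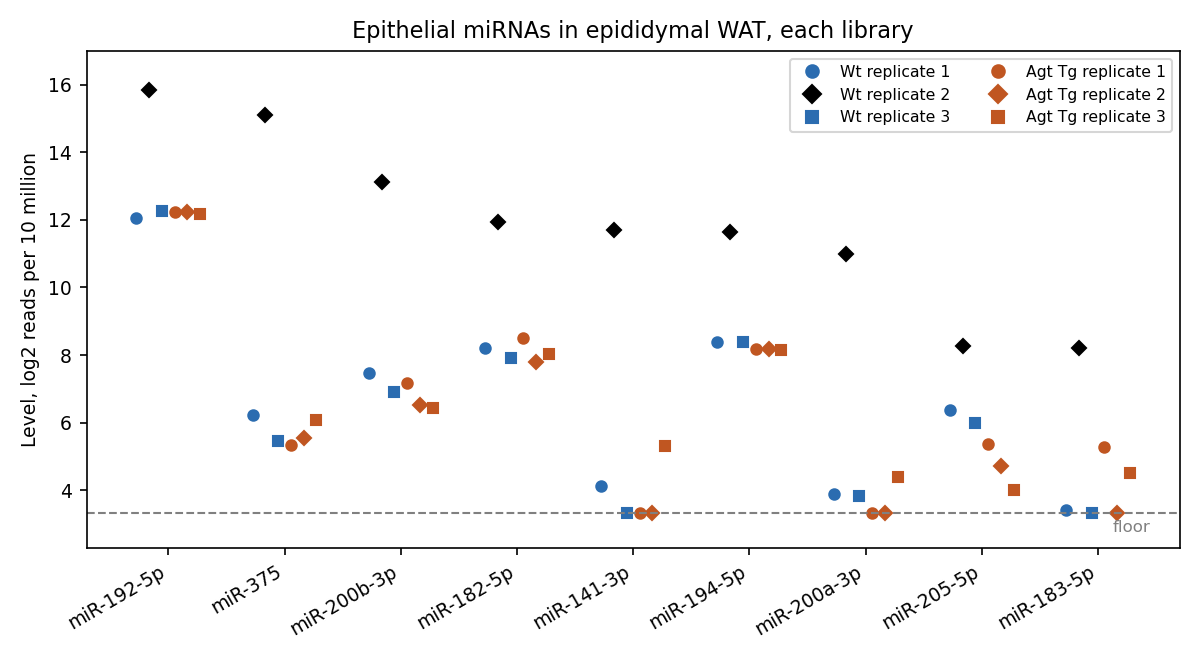
Level of each of the 9 miRNAs (y axis, log2 reads per 10000000, dashed line at the floor) in every library, 1 point per library, ordered by the level in Wt replicate 2 (black diamonds). Wt replicate 2 lies above all other points in all 9 columns, by 1.89 (miR-205-5p) to 8.87 (miR-375).

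Among the miR-200 family, miR-200b-3p was the most abundant. Its level was 7.48, 13.12 and 6.91 in Wt replicates 1, 2 and 3, and 7.17, 6.53 and 6.44 in Agt Tg replicates 1, 2 and 3. The count was 6982 reads in Wt replicate 2 and 59 to 149 in the others, so that the library exceeded its nearest neighbour 49.7-fold and the remaining libraries of both genotypes overlapped. miR-200a-3p, made from the same hairpin cluster, was at 3.88, 10.98 and 3.83 in Wt and at 3.32, 3.32 and 4.38 in Agt Tg mice. That is 1587 reads in Wt replicate 2, 97.2-fold above the next library, against 22 reads or fewer elsewhere and the floor in 2 Agt Tg libraries. miR-141-3p, which shares the seed of miR-200a-3p but comes from chromosome 6, was at 4.12, 11.69 and 3.32 in Wt and at 3.32, 3.32 and 5.31 in Agt Tg mice. It had 2585 reads in Wt replicate 2, 13 in Wt replicate 1, 42 in Agt Tg replicate 3 and none above the floor in the other 3 libraries.

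Of the 6 other products listed for the same 2 gene clusters, 3 were above the floor in Wt replicate 2 and in no other library. miR-200c-3p, the cluster partner of miR-141, had 571 reads in Wt replicate 2 and was at the floor in the other 5 libraries, a level at least 72.8-fold higher. The second strands miR-200a-5p (96 reads) and miR-200b-5p (61 reads) were likewise above the floor in Wt replicate 2 only, at least 12.2-fold and 7.78-fold higher than elsewhere. Within Wt replicate 2, miR-200a-3p outnumbered miR-200a-5p 16.5-fold and miR-200b-3p outnumbered miR-200b-5p 114-fold. The row of miR-429, the third member of the chromosome 4 cluster, was at the floor in all 6 libraries, as were miR-141-5p and miR-200c-5p. The rows carry human names, and whether the human and mouse sequences of miR-429, or of other rows at the floor, are alike was not examined.

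miR-182-5p and miR-183-5p were also highest in Wt replicate 2. miR-182-5p was at 8.22, 11.94 and 7.90 in Wt and at 8.51, 7.80 and 8.02 in Agt Tg mice, so Wt replicate 2 lay 10.8-fold above the next library with 3073 reads, and the rest lay within 0.71 of each other. miR-183-5p was much rarer, at 3.42, 8.22 and 3.32 in Wt and at 5.27, 3.32 and 4.51 in Agt Tg mice. It had 233 reads in Wt replicate 2, 40 in Agt Tg replicate 1, 24 in Agt Tg replicate 3, 8 in Wt replicate 1 and values at the floor in the other 2 libraries. Apart from Wt replicate 2, its 2 higher values were thus both from Agt Tg mice, and the third Agt Tg library was at the floor. miR-96-5p, encoded between them, was at the floor in all libraries, and so were the second strands miR-182-3p and miR-183-3p. The ratio of miR-182-5p to miR-183-5p was 13.2 in Wt replicate 2, inside the 9.42 to 27.9 of the 3 other libraries in which both could be read.

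miR-375 had the widest distance of any tested miRNA. It was at 6.23, 15.10 and 5.45 in Wt and at 5.34, 5.55 and 6.07 in Agt Tg mice. The reads were 27544 in Wt replicate 2 and 56, 43, 42, 30 and 71 in the other libraries, a 469-fold step with the other 5 within 0.89 of each other on the log2 scale. Among the 329 tested rows it ranked 33 in Wt replicate 2 and between 215 and 249 elsewhere.

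miR-192-5p was the most abundant of the set in every library. Its level was 12.05, 15.85 and 12.25 in Wt and 12.23, 12.22 and 12.18 in Agt Tg mice, with 46380 reads in Wt replicate 2 and 3049 to 4976 in the others. The 5 other libraries agreed within 0.21, with an SD of 0.08 against a median SD of 0.37 over the tested rows, and Wt replicate 2 was 12.1-fold above the highest of them. miR-194-5p, encoded next to it, was at 8.40, 11.64 and 8.40 in Wt and at 8.18, 8.19 and 8.16 in Agt Tg mice. Here too the 5 others were close together (range 0.24), and Wt replicate 2 was 9.41-fold higher. The ratio of miR-192-5p to miR-194-5p was 18.6 in Wt replicate 2 and 12.5 to 16.5 in the other libraries. It was the only pair from one gene cluster with both members above the floor in all 6 libraries. The second strand miR-194-3p had 39 reads in Wt replicate 2, 11 in Wt replicate 1 and values at the floor in the rest, while miR-192-3p and miR-215 were at the floor throughout. Whether the human-named row of miR-215 has the mouse sequence was not examined, so its floor values need not mean absence.

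miR-205-5p had the smallest step and the most spread among the other libraries. It was at 6.37, 8.26 and 6.0 in Wt and at 5.37, 4.73 and 4.01 in Agt Tg mice, from 62, 241, 63, 43, 17 and 17 reads. Wt replicate 2 was 3.71-fold above the next library. As in miR-194-5p but in none of the other 7, the remaining Wt libraries also lay above all 3 Agt Tg libraries, a separation in that direction that 26.5% of the miRNAs tested without Wt replicate 2 showed. It had an SD over the 5 libraries of 0.95, the largest of the set. miR-205-3p was at the floor in all libraries.

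The 9 miRNAs did not rise in one proportion. Over the 5 other libraries the order of the mean levels was miR-192-5p (12.19 ± 0.08, SD, n = 5), miR-194-5p (8.27 ± 0.12), miR-182-5p (8.09 ± 0.28), miR-200b-3p (6.91 ± 0.44), miR-375 (5.73 ± 0.39), miR-205-5p (5.30 ± 0.95), miR-183-5p (3.97 ± 0.88), miR-141-3p (3.88 ± 0.87) and miR-200a-3p (3.75 ± 0.44). The ranges of neighbours overlapped for miR-194-5p with miR-182-5p, for miR-375 with miR-205-5p and for each later step. Within the 5 libraries miR-194-5p was above miR-182-5p in 4, and miR-205-5p above miR-183-5p in 4. miR-375 was above miR-205-5p in 2, miR-183-5p above miR-141-3p in 1 and miR-141-3p above miR-200a-3p in 2. The order of these neighbours was not tested, and the last 3 miRNAs are partly at the floor. In Wt replicate 2 the order was miR-192-5p, miR-375, miR-200b-3p, miR-182-5p, miR-141-3p, miR-194-5p, miR-200a-3p, miR-205-5p and miR-183-5p. miR-375 thus moved from the fifth to the second place. Its share of the reads on the 9 miRNAs was 30.2% in Wt replicate 2 and 0.709% to 1.43% elsewhere, while that of miR-192-5p was 50.9% against 80.6% to 87.5%. miR-200b-3p made up 7.66% against 1.6% to 3.41%, and miR-205-5p 0.264% against 0.295% to 1.58%.

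**Figure D2:**
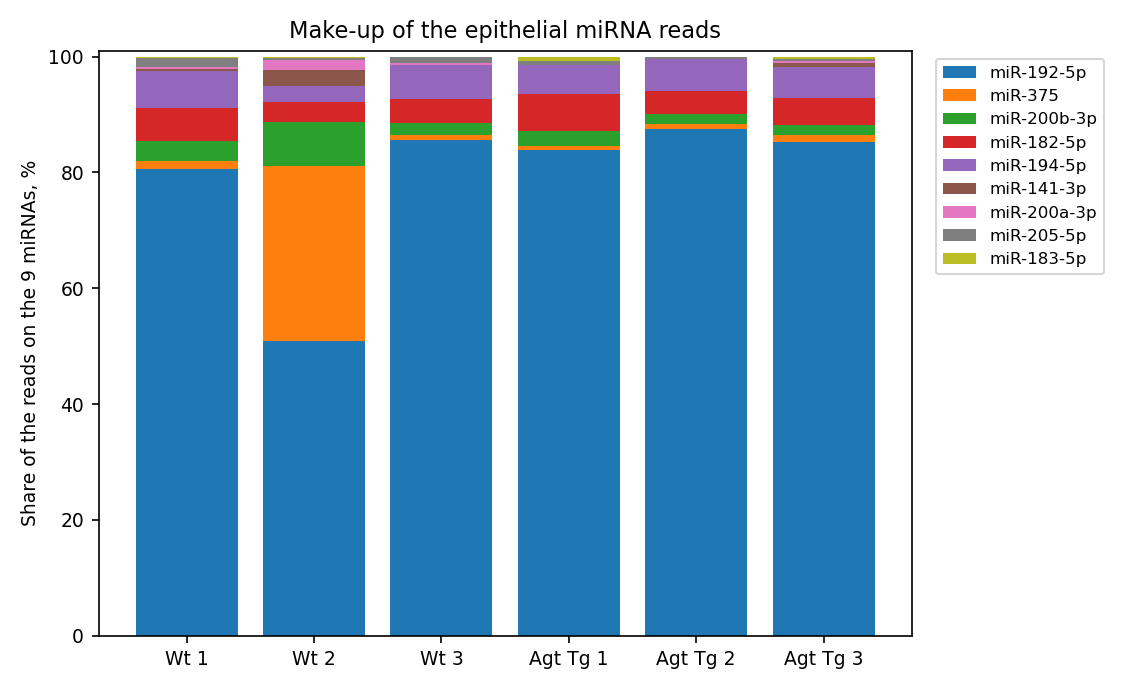
Share of the reads on the 9 miRNAs that each took (y axis, %; values at the floor drawn as 0) in the 6 libraries, 1 bar per library. miR-192-5p filled 80.6% to 87.5% of the bar in 5 libraries and 50.9% in Wt replicate 2, where miR-375 filled 30.2%.

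The other miRNAs with the most similar pattern were taken as the 10 tested rows, outside the 9, in which Wt replicate 2 exceeded the highest of the other 5 libraries by most. miR-34c-5p (5.96) and miR-34b-3p (5.59) came first, followed by miR-92b-3p (4.46) and miR-129-5p (3.81). miR-129-5p had 134 reads in Wt replicate 2, 12 in Wt replicate 3, 12 in Agt Tg replicate 3 and values at the floor elsewhere. Like miR-141-3p, it passed the filter only through Wt replicate 2. The remaining 6, miR-33a-5p, miR-204-5p, miR-1247-3p, miR-129-2-3p, miR-181c-3p and miR-181c-5p, lay between 1.87 and 1.50. miR-34b, miR-34c and miR-449 are known from testis and from multiciliated epithelium. miR-34c-5p alone had 64135 reads in Wt replicate 2, more than any of the 9, and 475 to 1367 in the others. miR-449a had 203 reads there and was at the floor in the other 5 libraries, at least 25.9-fold higher. Their relative miR-34a-5p, named after its values were seen, was not higher there, at 9.09 in Wt replicate 2 and 9.13 to 9.42 in the others. An epithelial miRNA that also did not share the pattern was miR-203a, known from keratinocytes and other stratified epithelium. It was at 11.21, 10.86 and 11.14 in Wt and at 10.77, 10.90 and 11.17 in Agt Tg mice, with Wt replicate 2 inside the range of the others. Of the 15 rows listed as other strands, cluster partners and miR-203a, 10 were at the floor in all libraries, 3 were above it in Wt replicate 2 only, and miR-194-3p and miR-203a were above it in 2 and 6 libraries.

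**Figure D3:**
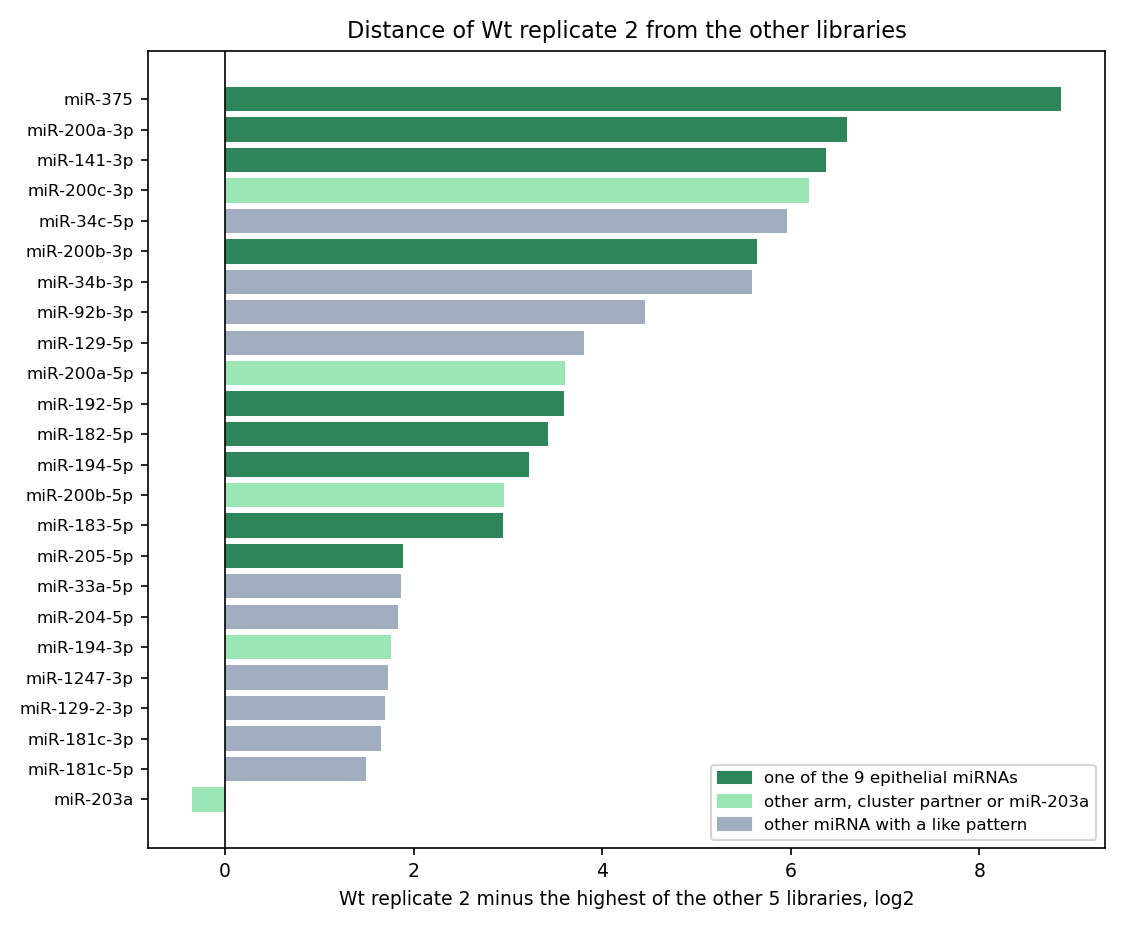
Distance of Wt replicate 2 from the highest of the other 5 libraries (x axis, log2) for the 9 miRNAs, for those of their other strands and partners that were above the floor in any library, with miR-203a, and for the 10 other tested miRNAs with the largest distance. The bars of miR-200c-3p, miR-200a-5p and miR-200b-5p are measured from the floor and are lower bounds, and miR-203a is the one row with a negative distance (-0.35).

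Lists of miRNAs known from other cells were read in the same libraries as summed levels, in reads per 10000000. The 9 miRNAs summed to 116241 in Wt replicate 2 and to 5249 to 5718 in the others. The list of miR-34 and miR-449 (3 of 7 rows above the floor, with miR-34b-5p, miR-34c-3p, miR-449b-5p and miR-449c-5p at the floor throughout) summed to 88164 against 867 to 1436. The adipocyte list summed to 509133 in Wt replicate 2, inside the 465031 to 661054 of the others, and the endothelial (72184, 2 of 2 rows above the floor) and leukocyte lists (41780, 4 of 4) were also inside their ranges. The erythroid list (4 of 4) was lowest in Wt replicate 2, at 50938 against 93086 to 207942. The fibroblast list (3 of 3 rows above the floor) was highest there, at 43205 against 14509 to 28631, but only 2 of its 3 rows were. The muscle list (2 of 4 above the floor, with miR-133b and miR-206 at the floor) was also highest there, at 1699 against 485 to 651. Only 1 muscle row was above the floor in at least 3 libraries. miR-122-5p, the liver miRNA, was at 92 there and 75 to 145 elsewhere. The part of these other cell types in the levels of the 9 miRNAs was not tested.

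**Figure D4:**
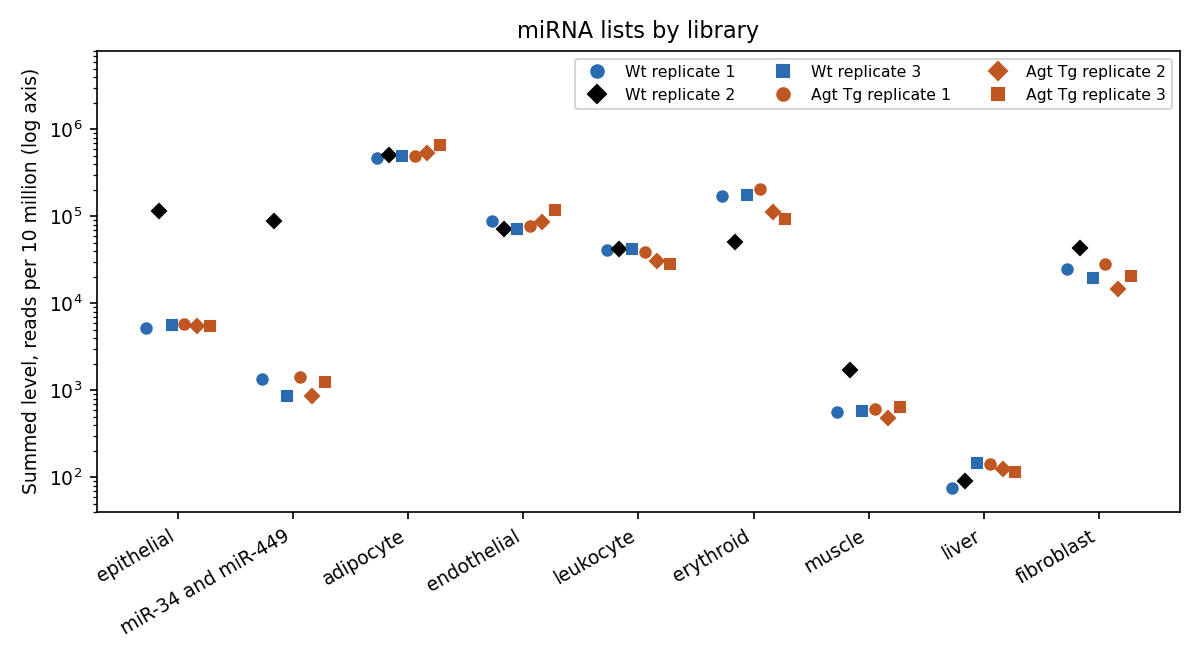
Summed level of each miRNA list (y axis, reads per 10000000, log axis; rows at the floor counted as 0) in every library, 1 point per library. Wt replicate 2 (black) stands far above the rest in the epithelial list of 9 (116241) and the miR-34 and miR-449 list (88164), and among the other libraries in the adipocyte list.

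The comparison of the genotypes asks which miRNAs differ in WAT when Agt is overexpressed there. Wt replicate 2 is 1 of its 3 control libraries, so with all 6 libraries the difference is described and not tested for these 9. The mean of each of the 9 was lower in Agt Tg mice, as it was for 67.5% of the tested miRNAs, with a median log2 difference of -2.17 over the 9 and -0.19 over all 329. The standard errors (limma) were large, from 0.65 to 2.34, against a median of 0.33 over all tested miRNAs. The difference was -3.27 (SE 2.34) for miR-375, whose mean level was 8.93 ± 5.36 (SD, n = 3) in the Wt and 5.65 ± 0.38 in the Agt Tg libraries. It was -2.56 (SE 1.82) for miR-200a-3p, -2.46 (SE 1.51) for miR-200b-3p and -2.39 (SE 2.07) for miR-141-3p. It was -1.30 (SE 0.83) for miR-194-5p, -1.25 (SE 1.01) for miR-182-5p, -1.17 (SE 0.94) for miR-192-5p and -0.62 (SE 1.31) for miR-183-5p. For miR-205-5p it was -2.17 (SE 0.65). Over the whole table, 16 of the 329 tested miRNAs (4.86%) passed the threshold of a log2 difference of at least 1 in size with an unadjusted limma p of at most 0.05, 7 of them lower in Agt Tg mice (2.13%), and no call is given for the 9. No miRNA had an adjusted p under 0.05, with 30 at an unadjusted p under 0.05 by limma and 28 by limma-voom. The genotypes did not overlap in miR-205-5p and miR-194-5p, with Agt Tg lower in both, as in 10.6% of the tested miRNAs.

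Without Wt replicate 2 the differences were small in most of the set. The remaining 2 Wt and 3 Agt Tg libraries were fitted again over 321 miRNAs, those that exceeded the floor in 3 or more of the 5, which left out miR-141-3p (mean 3.72 in Wt and 3.99 in Agt Tg mice, mostly at the floor). Over the other 8 the median log2 difference was -0.18, the same as over all 321, and 5 of the 8 were lower in Agt Tg mice, against 65.7% of all 321. For miR-375 the difference was -0.18 (SE 0.38) and for miR-200a-3p -0.18 (SE 0.41), and both were 0.04 when the libraries were scaled to miR-191-5p, a common reference miRNA. For miR-182-5p it was 0.05 (SE 0.30) and for miR-192-5p 0.06 (SE 0.16), and in these 4 it was smaller than its standard error. It was -0.48 (SE 0.35, limma adjusted p = 0.473) for miR-200b-3p and -0.22 (SE 0.21, limma adjusted p = 0.576) for miR-194-5p. In miR-194-5p both Wt libraries, at 8.40, lay above the 3 Agt Tg libraries, at 8.16 to 8.19, a separation that 26.5% of the 321 showed. Relative to the median of all miRNAs tested its difference was -0.04. miR-183-5p was higher in Agt Tg mice by 1.00 (SE 0.58, limma adjusted p = 0.405), with 1 Wt and 1 Agt Tg library at the floor. Leaving out the Agt Tg library at the floor, replicate 2, raised this difference to 1.52, past the unadjusted threshold (limma adjusted p = 0.496). In that fit 17 of 313 miRNAs passed the threshold, 10 of them higher in Agt Tg mice. A replicate block gave the same 1.52 (limma adjusted p = 0.218). Agt Tg replicate 2 was then alone in its block and did not enter the difference, so this is not a second result. None of the 8 passed an adjusted p under 0.05, and neither did any of the 321, of which 46 had an unadjusted p under 0.05 with limma and 48 with limma-voom, and an exact permutation test of 2 libraries against 3 cannot go below 0.1. Nothing in the labels says more about how the samples of a group were collected, so these p-values measure the spread between these libraries only.

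**Figure D5:**
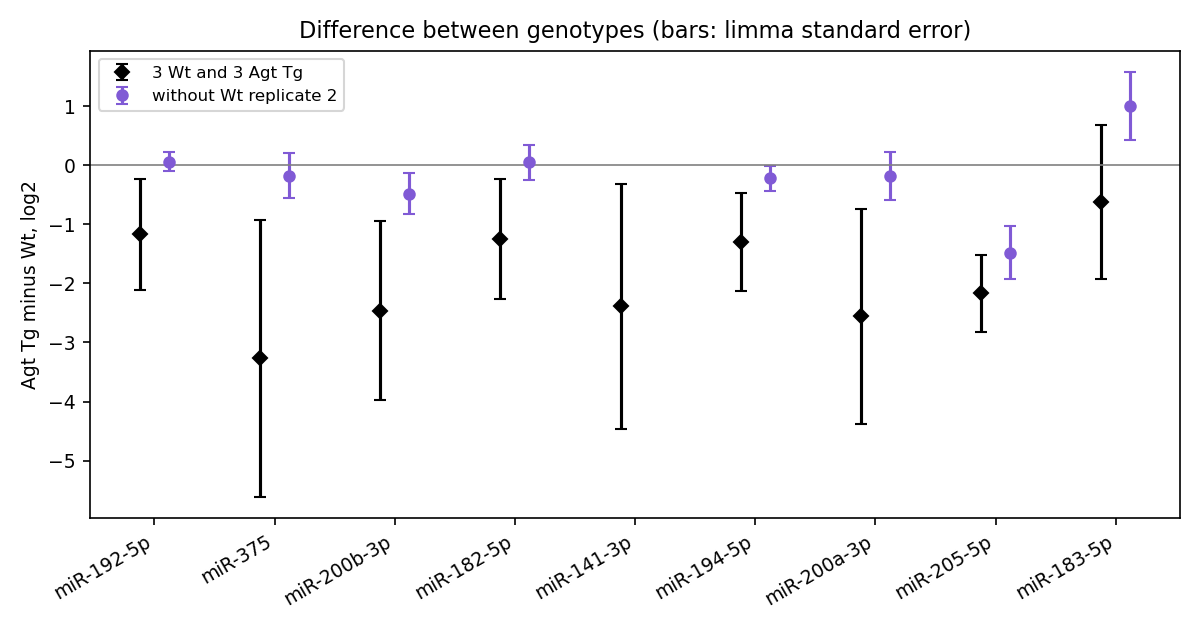
Agt Tg minus Wt difference (y axis, log2; bars are limma standard errors) of the 9 miRNAs with all 6 libraries (black) and without Wt replicate 2 (purple, 2 Wt and 3 Agt Tg libraries; miR-141-3p was not fitted there). Without that library 7 of the 8 fitted lie between -0.48 and 1.00 and miR-205-5p remains at -1.48.

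miR-205-5p was the member whose difference did not rest on Wt replicate 2 alone. Without Wt replicate 2 its levels of 6.37 and 6.0 in Wt stood above 5.37, 4.73 and 4.01 in Agt Tg mice, a difference of -1.48 (SE 0.45, limma adjusted p = 0.3), or -1.30 relative to the median of all miRNAs tested. It was the 1 of the 8 past the threshold there, which 22 of the 321 miRNAs passed (6.85%), 10 of them lower in Agt Tg mice (3.12%). The genotypes did not overlap in miR-205-5p, with Agt Tg lower, as in 85 of the 321 (26.5%). The adjusted p was between 0.0204 and 0.853 when the processing was varied or 1 more library was left out. It was 0.0204 without Agt Tg replicate 1 (difference -1.82), where 2 libraries were compared with 2 and 54 of 304 miRNAs passed the adjusted threshold, and without Wt replicate 1 it missed the unadjusted threshold (difference -1.30). The counts behind these values are low, at 17 reads in each of 2 Agt Tg libraries, and this miRNA had been named for its genotype difference in earlier results of these data.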

How the data were processed

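Small RNA of epididymal WAT from 3 Wt and 3 Agt Tg mice was sequenced. As deposited by the authors, the values are log2 of reads per 10000000 of each library's total, where anything below 10 was set to 10. The unit was inferred from the values: all 1924 values above the floor came out as whole reads, within 0.02 of a read, at 1 total per library. The paper names FastQC, miRBase and Qseq, and the labels the mouse build mm10. The number of mismatches allowed in mapping is not given in the sources used here.

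Rows that exceeded the floor in 3 or more libraries were fitted with limma 3.58.1 in R 4.3.3 (moderated statistics, variance trend, genotype as the only term), after a run on simulated data, and p-values were adjusted over all fitted rows by the Benjamini-Hochberg method. The fit was made with all 6 libraries and without Wt replicate 2. Alternatives were other scalings, limma-voom on recovered reads, log2(CPM + 1), other filters, a replicate block and leaving out each library. The 9 miRNAs, the lists and the rules were chosen with earlier results of these data known. Named beyond the 9 were their other strands and cluster partners, the 10 rows most like them and the marker lists. Intervals and floors cover counting error only. Sequences and hairpins are from RefSeq GRCm38.p6. No library pair agreed within sampling noise.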

Additional observations from a re-analysis of the deposited data

How the results depend on the processing

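With all 6 libraries 16 miRNAs passed the threshold (9 higher, 7 lower in Agt Tg mice). This became 7 on log2(CPM + 1), 3 with a mean of at least 10 CPM and 11 to 33 when 1 library was left out, with 33 without Agt Tg replicate 1. TMM scaling gave 10 higher and 5 lower. Without Wt replicate 2 the count was 22 (12 higher, 10 lower). It became 11 on log2(CPM + 1), 4 with a mean of at least 10 CPM and 5 to 49 when 1 more library was left out, with 5 without Wt replicate 1 and 49 without Agt Tg replicate 1. TMM scaling then gave 16 higher and 6 lower, and scaling to miR-191-5p 18 higher and 4 lower. TMM moved the median of all tested miRNAs by 0.12 with 6 libraries and by 0.16 with 5, and miR-191-5p by 0.22 with 5. The median distance of Wt replicate 2 above the other libraries over the 9 miRNAs was 3.60, and 4.08 when scaled to miR-191-5p.

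The median difference of the 9 was -2.17 with all 6 libraries and between -2.61 and -0.18 when 1 was left out, with -0.18 without Wt replicate 2. Leaving out Wt replicate 2 also turned the sign of miR-183-5p (-0.62 to 1.00), miR-182-5p (-1.25 to 0.05) and miR-192-5p (-1.17 to 0.06). In the fit without Wt replicate 2, signs turned for miR-375 (0.04) and miR-200a-3p (0.04) when scaled to miR-191-5p. When 1 more library was left out, they turned for miR-375 (range over these fits -0.57 to 0.20) and miR-192-5p (-0.04 to 0.16), with 0.20 and -0.04 without Wt replicate 1, and for miR-182-5p (-0.15 to 0.20), with -0.11 without Wt replicate 3 and -0.15 without Agt Tg replicate 1. Fits with 1 Wt library assume that it varies like the Agt Tg libraries. Of the alternatives to single miRNAs, 212 kept direction and side of the adjusted threshold or moved by less than the spread. The 3 that turned without Wt replicate 2 are among them, and the unadjusted threshold was not part of this count. Another 6 moved, 6 turned and 1 newly passed the adjusted threshold (miR-205-5p, limma adjusted p = 0.0204, without Agt Tg replicate 1). With 6 libraries the spread includes Wt replicate 2, so miR-375 counted as unmoved although its difference went from -3.27 to -0.18 without that library. All 6 that moved are distances of Wt replicate 2 above the others, and no genotype difference with 6 libraries was counted as moved. The cause of these changes was not tested. Without Wt replicate 2, miR-183-5p passed the unadjusted threshold when Agt Tg replicate 2 was also left out (1.52), where 17 of 313 miRNAs passed it. A replicate block also takes Agt Tg replicate 2 out of the difference there, so its 1.52 is the same estimate. A replicate block gave 17 miRNAs with 6 libraries and 22 with 5, with member medians of -2.17 and -0.07. Deviations of same-numbered libraries from their group means correlated at 0.22, -0.18 and -0.21 over 329 miRNAs, and only the pair numbered 1 was each other's best match. Whether the numbers pair the samples cannot be told from this, because the Wt means include Wt replicate 2. Rows near the floor of 6.39 to 10.6 reads limit miR-141-3p, miR-200a-3p and miR-183-5p.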
